A study of Mus musculus with 15 samples.

Results

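Expression of 7 genes was examined across 15 mouse tumors: Astn2, Rftn1, Diras2 and Shb, with the paralogs Astn1, Rftn2 and Diras1. The first 4 were selected on their neuroblastoma read counts, which set every neuroblastoma that lacked caspase-2 apart from every neuroblastoma with the wild type gene. The other 3 were added as sister genes of the same families. The 7 were taken from 23329 genes with deposited counts, and all 7 passed the filter on low counts, which kept 14880 genes (over 1 CPM, counts scaled to library size, in at least 3 tumors). The neuroblastoma values of the 4 genes are therefore a description of what chose them and carry no test.

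Each library came from the tumor of a single mouse. The neuroblastomas arose in the thoracic paraspinal region of Th-MYCN mice, in which the tyrosine hydroxylase promoter drives MYCN in cells of the sympathetic lineage, on a mixed Sv129/C57BL6 strain background. There were 4 tumors from Th-MYCN mice with wild type Casp2 and 4 from Th-MYCN/Casp2-/- mice, and the study took neuroblastomas that looked poor in blood vessels. The lymphomas came from cervical lymph nodes of EμMyc mice, in which c-Myc is under the enhancer of the immunoglobulin heavy chain gene and is made in B cells, on a C57BL/6 background, with 4 EμMyc and 3 EμMyc/Casp2-/- tumors. The Casp2-/- allele was constitutive, so tumor cells and host cells both carried it. Neuroblastomas appeared at 10 to 21 weeks in Th-MYCN mice and at 15 to 24 weeks in Th-MYCN/Casp2-/- mice. Lymphomas appeared at 13 to 19 weeks with wild type Casp2 and at 8 to 12 weeks without it. Tumors are named here by group and a number that has no other meaning.

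The 7 genes belong to 4 unrelated families. Astrotactins are membrane glycoproteins of neurons. Astn1 acts in the adhesion of migrating neurons to glial fibres, and Astn2 regulates how much Astn1 is held on the cell surface. Raftlins are lipid raft proteins. Rftn1 was described in B lymphocytes, where it is a major raft protein that takes part in B cell receptor signaling, and Rftn2 is its less studied relative. Diras1 and Diras2 are small GTPases of the Ras superfamily that are abundant in brain, and Diras1 has been described as a brake on Ras signaling. Shb is an SH2 domain adaptor that links receptor tyrosine kinases, among them the VEGF receptor Kdr, and the T cell receptor to downstream proteins.

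The counts used are reads assigned to the second strand, with 4940464 to 17638029 assigned reads per library. The second strand held 48.8 to 49.3% of the reads that either strand gave, so the strands were near equal and reads of overlapping genes on opposite strands cannot be told apart. Casp2 itself, counted over the whole gene, was at 76.0 to 125 CPM in Th-MYCN and 39.6 to 80.2 CPM in Th-MYCN/Casp2-/- tumors, and at 125 to 203 CPM in EμMyc and 51.9 to 76.1 CPM in EμMyc/Casp2-/- tumors. Reads outside the deleted part of the gene are in these counts, so they check the labels only in part. EμMyc/Casp2-/- tumor 1 stood apart by its T cell markers, which summed to 2131 CPM over 12 genes, against 107 to 331 CPM in the other 6 lymphomas. It was also the shallowest library. In bulk tumor RNA, fewer cells of a type and less RNA per cell cannot be told apart.

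In the neuroblastomas, Astn2, Rftn1, Diras2 and Shb were lower in all 4 Th-MYCN/Casp2-/- tumors than in any Th-MYCN tumor, and the 3 paralogs were not. The gap was widest for Astn2, whose fitted level was 19.3-fold lower, while the other 3 were 2.71-fold to 3.58-fold lower. A differentially expressed gene (DEG) is here a gene with a change over 2-fold and an FDR under 0.05 by the likelihood ratio test (LRT) of edgeR. Over all 14880 genes, 0.813% were DEGs in this comparison, with 0.625% lower in the Casp2-/- tumors, and 6.62% had groups that did not overlap, with 3.68% lower there. Since the rule used this contrast, neither rule is applied to the members as a test.

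**Figure D1:**
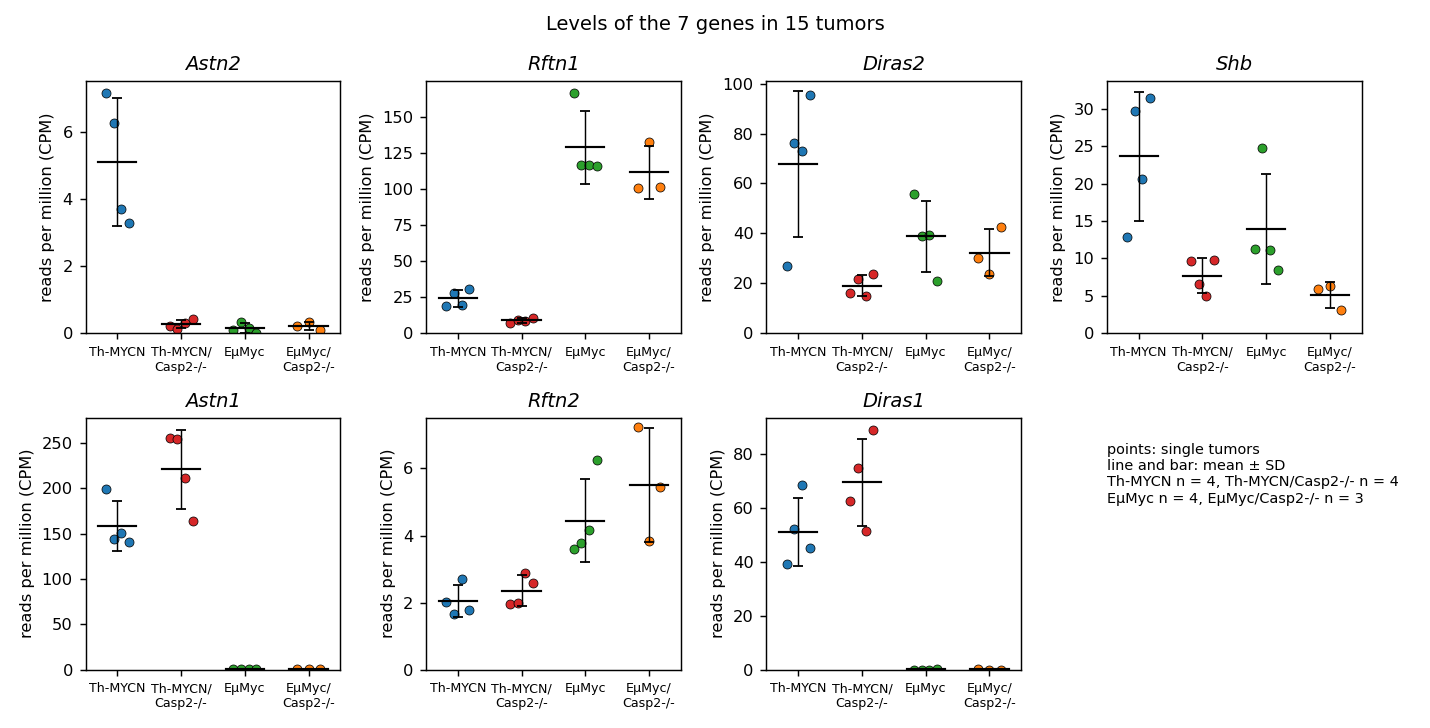
Level in CPM (vertical axis, from 0) of each of the 7 genes in the 4 groups (horizontal axis). Points are single tumors, the horizontal line is the group mean and the bar is the SD. Astn2, Rftn1, Diras2 and Shb are lower in every Th-MYCN/Casp2-/- tumor than in every Th-MYCN tumor, while Astn1, Rftn2 and Diras1 overlap, and Astn1 and Diras1 are near 0 in the lymphomas.

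Astn2 lies on chromosome 4 (GRCm38, 65380803 to 66404537, minus strand), with 4959 bases of annotated exons. Its level was 7.15, 6.25, 3.69 and 3.27 CPM in Th-MYCN tumors 1 to 4. In Th-MYCN/Casp2-/- tumors 1 to 4 it was 0.216, 0.129, 0.289 and 0.406 CPM. The lowest wild type tumor was thus 8.06 times the highest Casp2-/- tumor. These levels rest on 117, 86, 64 and 53 reads in the wild type tumors and on 3, 2, 3 and 5 reads in the Casp2-/- tumors, so Astn2 was close to the limit of detection in the Casp2-/- tumors. Pooled over tumors, these are 320 reads against 13. The fitted log2 fold change was -4.27 (SE 0.627), the seventh largest fall among the 547 genes whose Casp2-/- tumors all lay below the wild type tumors. The first strand holds other reads of the same libraries, and there Astn2 had 127, 92, 82 and 55 reads in the Th-MYCN and 4, 2, 3 and 9 reads in the Th-MYCN/Casp2-/- tumors. First strand reads were also looked at when the gene was chosen, so they describe the same choice.

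Trim32, a ubiquitin ligase gene, sits inside Astn2 on the opposite strand and shares no exon bases with it. It averaged 102 ± 16.2 CPM (SD, n = 4) with wild type Casp2 and 103 ± 19.6 CPM (SD, n = 4) without it in the neuroblastomas, and its fitted log2 difference was 0.02 (LRT FDR 1).

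Rftn1 lies on chromosome 17 (49993258 to 50190497, minus strand) and has 4504 bases of exons. Its level was 18.6, 27.6, 19.2 and 30.6 CPM in Th-MYCN tumors 1 to 4 and 7.06, 9.32, 8.29 and 10.7 CPM in the Th-MYCN/Casp2-/- tumors. The lowest wild type tumor was 1.74 times the highest Casp2-/- tumor. The log2 fold change was -1.44 (SE 0.236), the smallest of the 4 and the one with the smallest error.

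Diras2 lies on chromosome 13 (52504375 to 52531354, minus strand) and has 4786 bases of exons. Its level was 26.7, 76.1, 73.2 and 95.3 CPM in the Th-MYCN tumors and 16.0, 21.5, 14.7 and 23.5 CPM in the Th-MYCN/Casp2-/- tumors. Th-MYCN tumor 1 was far below the other 3 wild type tumors and only 1.14 times the highest Casp2-/- tumor, so of the 4 genes Diras2 was nearest to the limit of the rule. The log2 fold change was -1.84 (SE 0.372).

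Shb lies on chromosome 4 (45423276 to 45530828, minus strand) and has 3199 bases of exons. Its level was 12.9, 29.7, 20.6 and 31.4 CPM in the Th-MYCN tumors and 9.58, 6.55, 4.92 and 9.75 CPM in the Th-MYCN/Casp2-/- tumors. Again Th-MYCN tumor 1 was the lowest wild type tumor, at 1.32 times the highest Casp2-/- tumor. The log2 fold change was -1.62 (SE 0.421). For all 4 genes the groups were also separate when reads of the first strand or of either strand were counted. Those counts served as a check when the genes were chosen, so this separation is not separate support.

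Because these 4 genes were lower in the same tumors and both tumor models are driven by a MYC protein, which binds the E-box CACGTG, their promoters were read from RefSeq (GRCm38.p6, 250 bases before to 50 bases after the annotated start). An entry was matched for 6 of the 7 genes, the exception being Rftn2. The windows of Diras2 and Diras1 lie wholly inside the genes as placed here, whose 5′ ends are at 52531354 and 81025835. The starts used for these 2 genes are therefore not the outermost ones. The windows of Astn2 (chr4:66404434-66404733), Rftn1 (chr17:50190448-50190747), Diras2 (chr13:52530787-52531086) and Shb (chr4:45530779-45531078) are shown beside that of the paralog Diras1 (chr10:81025328-81025627), all on the minus strand, 5′ to 3′. Capitals mark matches to the general E-box CANNTG, which reads the same pattern on both strands and includes CACGTG.

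Astn2: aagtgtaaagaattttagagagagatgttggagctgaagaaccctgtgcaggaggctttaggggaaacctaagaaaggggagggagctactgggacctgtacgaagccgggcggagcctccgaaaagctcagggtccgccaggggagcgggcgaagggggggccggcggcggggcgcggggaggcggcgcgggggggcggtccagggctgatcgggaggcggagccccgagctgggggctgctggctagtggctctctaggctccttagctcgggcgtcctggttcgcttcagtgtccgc
Rftn1: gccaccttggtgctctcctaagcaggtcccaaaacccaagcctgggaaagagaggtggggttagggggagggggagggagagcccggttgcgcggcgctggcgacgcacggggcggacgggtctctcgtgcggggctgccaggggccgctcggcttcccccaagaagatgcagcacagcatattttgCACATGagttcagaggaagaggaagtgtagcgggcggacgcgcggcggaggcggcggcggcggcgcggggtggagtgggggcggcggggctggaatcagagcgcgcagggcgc
Diras2: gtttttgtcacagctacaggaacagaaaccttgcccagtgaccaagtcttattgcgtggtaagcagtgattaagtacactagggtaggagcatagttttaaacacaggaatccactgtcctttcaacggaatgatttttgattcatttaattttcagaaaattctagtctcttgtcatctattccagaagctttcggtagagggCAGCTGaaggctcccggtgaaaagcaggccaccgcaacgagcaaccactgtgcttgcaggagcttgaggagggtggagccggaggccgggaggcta
Shb: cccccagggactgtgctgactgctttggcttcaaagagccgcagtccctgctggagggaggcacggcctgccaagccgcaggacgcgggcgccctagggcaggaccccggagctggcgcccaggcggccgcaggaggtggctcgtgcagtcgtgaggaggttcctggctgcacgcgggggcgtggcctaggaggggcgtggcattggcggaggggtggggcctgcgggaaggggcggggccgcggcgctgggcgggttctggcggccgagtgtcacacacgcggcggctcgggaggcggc
Diras1: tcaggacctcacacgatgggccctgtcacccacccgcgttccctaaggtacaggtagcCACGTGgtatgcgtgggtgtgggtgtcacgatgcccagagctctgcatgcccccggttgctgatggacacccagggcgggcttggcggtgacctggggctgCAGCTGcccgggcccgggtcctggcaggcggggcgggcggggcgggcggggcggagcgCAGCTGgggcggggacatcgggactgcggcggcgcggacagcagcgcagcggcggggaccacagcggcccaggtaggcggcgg

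No CACGTG is in the windows of Astn2, Rftn1, Diras2 or Shb, and 7.15% of all 32851 windows of this length hold it. The only one among the 6 windows is in Diras1, with its first base at -192 from the start. The general E-box is in 72.3% of all windows, and it occurs at 1 place in Rftn1, 1 in Diras2, 3 in Diras1, 3 in Astn1 and at none in Astn2 or Shb. Astn2, Rftn1, Diras1 and Shb have windows rich in CG dinucleotides, with 23, 30, 30 and 30 against a median of 7 over all windows, while Diras2 has 8 and Astn1 has 2. The 4 windows thus do not share 1 type of sequence by these measures. Since the Diras2 window is not at the 5′ end of the gene, this may not hold for its outermost promoter.

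The paralogs did not part the genotypes. Astn1 (chromosome 1, 158362102 to 158691786, plus strand, 9839 bases of exons) was at 199, 144, 151 and 140.2 CPM in the Th-MYCN tumors. In the Th-MYCN/Casp2-/- tumors it was at 255, 254, 211 and 163 CPM. Only Th-MYCN/Casp2-/- tumor 4 fell within the wild type range, and the log2 fold change of 0.48 (SE 0.231) was in the opposite direction to that of Astn2.

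Diras1 (chromosome 10, 81019589 to 81025835, minus strand, 3035 bases of exons) was at 39.3, 52.2, 68.4 and 45.0 CPM in the Th-MYCN and 62.7, 74.7, 51.7 and 89.1 CPM in the Th-MYCN/Casp2-/- tumors. The groups overlapped, with a log2 fold change of 0.44 (SE 0.288). Rftn2 (chromosome 1, 55170159 to 55227063, minus strand, 5871 bases of exons) was low throughout, at 2.02, 1.67, 2.71 and 1.79 CPM against 1.94, 1.99, 2.89 and 2.60 CPM, with a log2 fold change of 0.19 (SE 0.383). An antisense transcript, Gm10561, covers 500 exon bases (8.52%) of Rftn2, so a part of its reads may belong to either gene.

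Set against each other per exon length, the genes of a pair changed their balance. Diras2 held 30.1 to 57.3% of the summed Diras1 and Diras2 level per kilobase in the Th-MYCN tumors and 13.9 to 15.4% in the Th-MYCN/Casp2-/- tumors. Rftn1 held 90.2 to 95.7% of the raftlin level in the Th-MYCN and 78.9 to 85.9% in the Th-MYCN/Casp2-/- tumors. Astn2 was the minor astrotactin in every neuroblastoma, at 4.43 to 7.95% of the pair in wild type and 0.100 to 0.491% in Casp2-/- tumors. These shares use the same values that chose the genes and are given as a description. In the lymphomas the share of Diras2 was 97.7 to 100% and that of Rftn1 was 94.8 to 98.4%. The astrotactin shares there rest on 13 reads of Astn2 and 46 of Astn1 and carry little information.

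**Figure D2:**
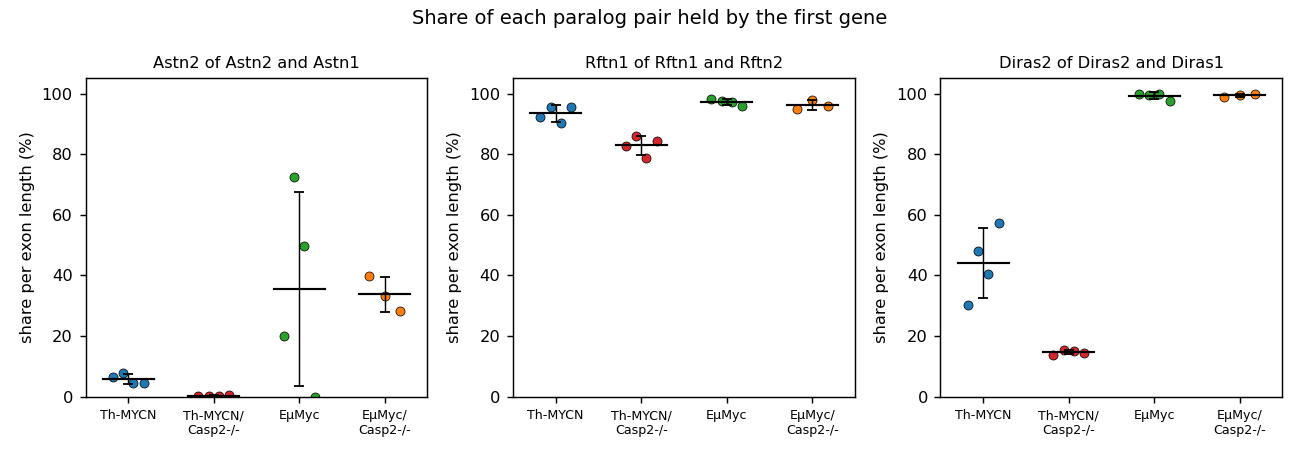
Share of each paralog pair held by the first named gene, in percent of the summed level per exon length (vertical axis), in the 4 groups (horizontal axis). Points are single tumors, with mean and SD. In the Th-MYCN/Casp2-/- tumors the shares of Astn2, Rftn1 and Diras2 lie below those of the Th-MYCN tumors, and the spread of the Diras2 share is narrow, 13.9 to 15.4%.

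In the lymphomas, the question was whether the same genes differed between EμMyc/Casp2-/- and EμMyc tumors, and this contrast played no part in choosing them. None of the 7 was a DEG by the LRT, against 1.44% of all genes tested. None was called by edgeR's quasi-likelihood test (QLF), which called 0.141% of all genes, or by DESeq2, and by unadjusted LRT p under 0.05 only Shb passed, as did 9.89% of all genes. Only the Shb groups did not overlap, in a comparison where 3.7% of all genes had groups without overlap, 1.96% with the Casp2-/- tumors lower.

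Shb was at 11.3, 24.8, 11.1 and 8.49 CPM in EμMyc tumors 1 to 4 and at 5.86, 6.26 and 3.03 CPM in the EμMyc/Casp2-/- tumors. All 3 Casp2-/- lymphomas lay below all 4 wild type lymphomas, as in the neuroblastomas. The log2 fold change of -1.47 (SE 0.468, LRT FDR 0.102, QLF FDR 0.298) did not pass the test, and its 95% interval was -2.39 to -0.55. Without EμMyc/Casp2-/- tumor 1, the tumor high in T cell markers, it was -1.56 (LRT FDR 0.350), and without EμMyc tumor 2, the highest, it was -1.03 (FDR 0.328). The first strand and either strand gave the same separation. With onset as a covariate the log2 fold change was -2.01 (LRT FDR 0.00684). Here and below, this covariate had the same slope in lymphomas and neuroblastomas, so the value rests in part on the neuroblastomas. Also, onset was 13 weeks or later in every EμMyc and 12 weeks or earlier in every EμMyc/Casp2-/- mouse, so onset and genotype cannot be told apart. Shb was 1 of 8 genes (0.0538% of all) with the Casp2-/- tumors lower and no overlap in both tumor types. Those 8 made up 1.46% of the 547 such genes of the neuroblastomas, against the 1.96% of all genes that were so in the lymphomas. They made up 2.75% of the 291 such genes of the lymphomas, against the 3.68% of all genes that were so in the neuroblastomas. Both shares were thus below those over all genes.

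Rftn1, the B cell raft protein, was at 167, 117, 117 and 116 CPM in EμMyc and 100.4, 133 and 102 CPM in EμMyc/Casp2-/- tumors, with a log2 fold change of -0.21 (SE 0.243, LRT FDR 0.850). Diras2 was at 55.9, 38.9, 39.2 and 20.9 CPM against 30.3, 23.9 and 42.7 CPM, with a log2 fold change of -0.26 (SE 0.402, LRT FDR 0.897). For both genes the groups overlapped. The 95% interval of the log2 fold change, from the standard error, was -0.69 to 0.27 for Rftn1 and -1.05 to 0.53 for Diras2.

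Rftn2 was at 3.59, 3.76, 4.17 and 6.26 CPM in EμMyc and 7.23, 3.84 and 5.45 CPM in EμMyc/Casp2-/- tumors. Its groups overlapped, with a log2 fold change of 0.29 (SE 0.398, LRT FDR 0.879). The other 3 genes rested on few reads in lymphomas. Over all 7 lymphomas Astn2 had 13 reads, Diras1 6 reads and Astn1 46 reads, and 3 reads correspond to between 0.229 and 0.607 CPM in these libraries. The exact 95% intervals of the pooled EμMyc to EμMyc/Casp2-/- ratio, from counting error only, ran from 0.200 to 2.51 for Astn2, 0.171 to 13.2 for Diras1 and 0.293 to 1.02 for Astn1.

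**Figure D3:**
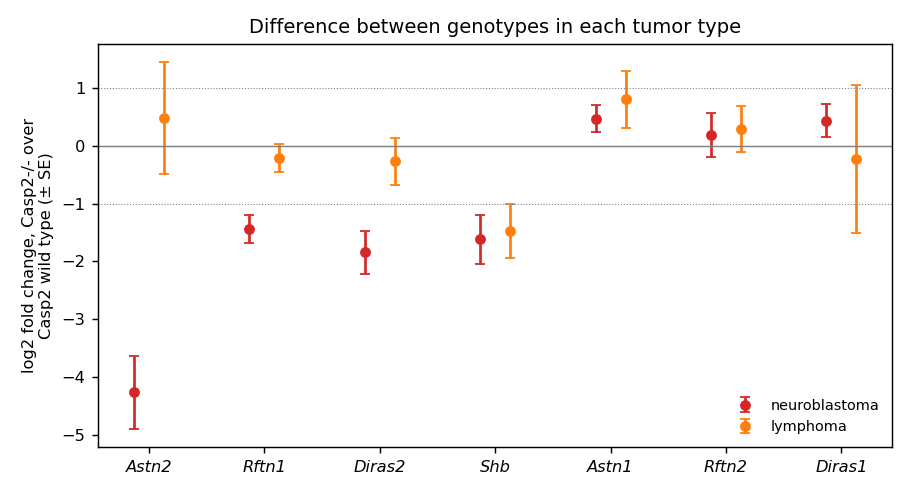
Fitted log2 fold change of Casp2-/- over Casp2 wild type tumors (vertical axis, with SE) for each gene (horizontal axis), in the neuroblastomas and in the lymphomas. Dotted lines mark 2-fold changes. Astn2, Rftn1 and Diras2 lie at -4.27, -1.44 and -1.84 in the neuroblastomas and at 0.49, -0.21 and -0.26 in the lymphomas, while Shb lies at -1.62 and -1.47.

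The difference between the 2 tumor types in the effect of genotype is given without a test, since it contains the contrast that chose the genes. Over all genes tested, 0.914% had such a difference by the LRT. It was 4.76 (SE 1.15) on the log2 scale for Astn2, 1.23 (SE 0.339) for Rftn1, 1.58 (SE 0.548) for Diras2 and 0.15 (SE 0.630) for Shb, with positive values meaning a deeper fall in the neuroblastomas. The value for Astn2 depends on the 13 lymphoma reads and on 13 reads in the Th-MYCN/Casp2-/- tumors, and it was 2.27 in first strand reads. With onset as a covariate the value was 0.89 for Diras2 and -0.73 for Shb.

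The comparison of lymphomas with neuroblastomas, averaged over genotypes, asked how the level of each gene differed between the tumor types. Of the 7 genes, 5 differed by over 2-fold with an LRT FDR under 0.05, as did 50.1% of all genes tested (49.5% by QLF, with the same 5). Astn1, Diras1 and Astn2 passed the filter on low counts only through the neuroblastomas, and Astn2 only through the Th-MYCN tumors. Between Casp2-/- tumors Astn2 differed by -0.21 (SE 0.889, LRT FDR 0.848). The filter favoured a difference for these genes, so their calls support nothing. The remaining 4 were expressed in both tumor types.

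Rftn1 was the lymphoma gene of the set. It was at 122 ± 22.8 CPM (SD, n = 7) in lymphomas and 16.4 ± 9.07 CPM (SD, n = 8) in neuroblastomas, a log2 difference of 3.04 (SE 0.169, LRT FDR 1.41e-64). The average takes in the Th-MYCN/Casp2-/- tumors, whose low Rftn1 chose the gene, and the difference was 2.43 (SE 0.227) between wild type tumors and 3.66 (SE 0.252) between Casp2-/- tumors. Every lymphoma was above every neuroblastoma, in a comparison where 41.8% of all genes did not overlap. B lineage markers, which summed to 2490 to 5473 CPM in the lymphomas, summed to 18.1 to 91.2 CPM in the neuroblastomas. Rftn2 was higher in lymphomas too, at 4.90 ± 1.43 CPM (SD, n = 7) against 2.20 ± 0.462 CPM (SD, n = 8), a log2 difference of 1.16 (SE 0.276, LRT FDR 5.64e-05). In first strand reads this difference was 0.87, under 2-fold.

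Diras2 did not follow tumor type. Its log2 difference was -0.02 (SE 0.274, LRT FDR 0.956), but this average hides opposite values within genotypes. EμMyc tumors were lower than Th-MYCN tumors by a log2 difference of -0.81 (SE 0.370) and EμMyc/Casp2-/- tumors were higher than Th-MYCN/Casp2-/- tumors by 0.77 (SE 0.404), and the choice of genes fixed a part of this contrast. Shb was lower in lymphomas by a log2 difference of -0.69 (SE 0.315, LRT FDR 0.0425, QLF FDR 0.0503), which was under 2-fold. This average too takes in the contrast that chose Shb. Within genotypes the difference did not pass the test (-0.76, LRT FDR 0.103, in wild type and -0.61, LRT FDR 0.262, in Casp2-/- tumors), and with onset as a covariate it was -1.18 (LRT FDR 0.000873).

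Nearly all reads of Diras1 and Astn1 came from the neuroblastomas, which is given as a description. Diras1 had 6944 reads in the 8 neuroblastomas and 6 in the 7 lymphomas, and Astn1 had 21817 and 46 reads. Its lymphoma levels were 0.700, 0.257, 0.315 and 0.743 CPM in EμMyc and 0.586, 1.34 and 0.505 CPM in EμMyc/Casp2-/- tumors. Sympathetic neuroblast markers summed to 5873 to 9327 CPM in the neuroblastomas and 15.1 to 41.6 CPM in the lymphomas.

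Astn2 divided the tumors differently from Astn1. Th-MYCN tumors stood alone, and in the Th-MYCN/Casp2-/- tumors Astn2 was about as low as in lymphomas, where it was at 0.0875, 0.342, 0.157 and 0 CPM in EμMyc and 0.195, 0.334 and 0.101 CPM in EμMyc/Casp2-/- tumors. The pooled ratio of Th-MYCN/Casp2-/- tumors to lymphomas was 1.39, with 13 reads on each side and a counting interval of 0.592 to 3.24. Astn1 was at 163 CPM or more in every Th-MYCN/Casp2-/- tumor, so these tumors still expressed the neuronal paralog.

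Per kilobase of exon, the order of levels in Th-MYCN tumors was Diras1 (16.9 ± 4.16 CPM per kb, SD, n = 4), Astn1 (16.1 ± 2.81), Diras2 (14.2 ± 6.08), Shb (7.40 ± 2.69), Rftn1 (5.33 ± 1.34), Astn2 (1.03 ± 0.383) and Rftn2 (0.349 ± 0.0794). The first 3 did not differ beyond their spread, nor did Shb and Rftn1. In Th-MYCN/Casp2-/- tumors Diras1 and Astn1 led at 22.9 ± 5.30 and 22.4 ± 4.42 CPM per kb. Diras2 followed at 3.95 ± 0.889, Shb at 2.41 ± 0.739 and Rftn1 at 1.96 ± 0.345, and Astn2 was last at 0.0524 ± 0.0237, below Rftn2 at 0.401 ± 0.0792. In EμMyc tumors Rftn1 led at 28.6 ± 5.61 CPM per kb, ahead of Diras2 at 8.09 ± 2.99 and Shb at 4.35 ± 2.30.

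Within the Th-MYCN group the 4 lower genes did not rise and fall as 1 block. Th-MYCN tumor 1 had the highest Astn2 and the lowest Rftn1, Diras2 and Shb of the 4 wild type tumors. Th-MYCN tumor 4 had the lowest Astn2 and the highest Rftn1, Diras2 and Shb. Among the Th-MYCN/Casp2-/- tumors, tumor 4 was highest for all 4 genes, though for Astn2 this rests on 5 reads. After the group means were taken away, Pearson's r over the 8 neuroblastomas was 0.79 for Diras2 with Shb, 0.73 for Rftn1 with Diras2 and 0.61 for Rftn1 with Shb. With Astn2 it was -0.53 for Diras2, -0.24 for Shb and -0.09 for Rftn1. These values describe 8 points that share depth and scaling, and they carry no test. Each r with Astn2, here and below, takes in 4 tumors with 2 to 5 reads of it.

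**Figure D4:**
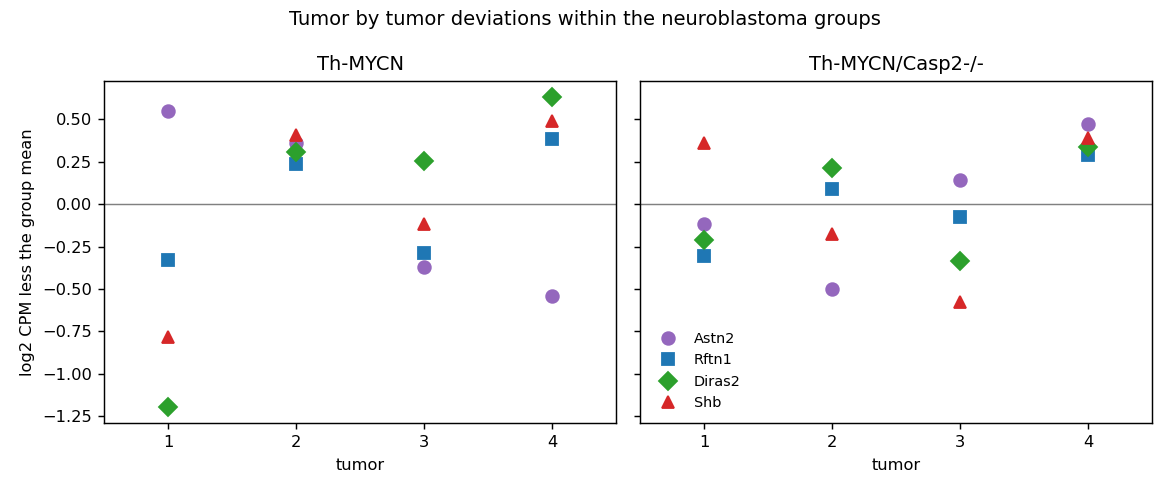
Deviation of log2 CPM from the group mean (vertical axis) for Astn2, Rftn1, Diras2 and Shb in each of the 4 Th-MYCN and 4 Th-MYCN/Casp2-/- tumors (horizontal axis). In Th-MYCN tumors 1 and 4 Astn2 lies on the opposite side of the group mean from the other 3 genes.

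Onset moved with a part of this pattern. Th-MYCN tumor 1 had the latest onset of its group, 21 weeks against 10 to 15 weeks, and Th-MYCN/Casp2-/- tumor 3, with the lowest Diras2 and Shb of its group, had the latest of all at 24 weeks. Less the group means, r with onset over the 8 tumors was -0.84 for Diras1, -0.75 for Shb, -0.69 for Diras2, -0.17 for Rftn1 and 0.33 for Astn2. With onset as a covariate the log2 fold change between genotypes was -1.49 for Diras2, -1.28 for Shb, -1.37 for Rftn1, -4.29 for Astn2 and 0.64 for Diras1, against -1.84, -1.62, -1.44, -4.27 and 0.44 without it. The slope of this covariate was shared with the lymphomas, so these values are not an adjustment within the neuroblastomas alone.

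The summed level of endothelial markers was also lower in every Th-MYCN/Casp2-/- tumor than in any Th-MYCN tumor. Of 12 endothelial genes tested, 11 had a negative log2 fold change and 2 were DEGs, Pecam1 (-1.20, SE 0.237, LRT FDR 0.000552, QLF FDR 0.0812) and Kdr (-1.46, SE 0.383, LRT FDR 0.0308, QLF FDR 0.220). The 12 summed to 82.8 to 140 CPM in Th-MYCN and 46.8 to 76.6 CPM in Th-MYCN/Casp2-/- tumors, and no marker was at 0 in every tumor of a group. Less the group means, r of the summed level with Astn2 over the 8 neuroblastomas was 0.83, and it was -0.24 with Rftn1, -0.59 with Diras2 and -0.41 with Shb. With the summed sympathetic neuroblast markers, r was 0.69 for Astn2, -0.48 for Rftn1, -0.87 for Diras2 and -0.58 for Shb. Thus r was positive for Astn2 and negative for the other 3 with both lists. For Astn2 the 4 Th-MYCN/Casp2-/- tumors had 2 to 5 reads each, so counting error weighs heavily on its r. The part of these markers in the results was not tested. In the lymphomas the same markers summed to 191 to 374 CPM in EμMyc and 226 to 358 CPM in EμMyc/Casp2-/- tumors, and Astn2 was near 0 there.

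Among other marker lists, 2 of 10 genes in the fibroblast and pericyte list were DEGs, both lower in Th-MYCN/Casp2-/- tumors. They were Rgs5 (-1.85, LRT FDR 0.0265, QLF FDR 0.224) and Acta2 (-1.97, LRT FDR 0.0402, QLF FDR 0.270), genes of pericytes and smooth muscle. The list as a whole was not lower, with 5 of 10 negative and a median log2 fold change of 0.005. Its sum was 312 to 557 CPM in Th-MYCN and 224 to 611 CPM in Th-MYCN/Casp2-/- tumors. None of the 14 sympathetic neuroblast, 11 B lineage, 12 T cell, 13 macrophage, 9 Schwann and neural crest, 2 erythroid or 2 chromaffin and adrenal cortex markers tested was a DEG there by the LRT or QLF. At an unadjusted LRT p under 0.05, 5, 2, 0, 0, 3, 0 and 0 of them passed. The share of all genes that passed this in the neuroblastomas is not reported here, so these counts cannot be set against it. In the lymphomas 6 of 12 T cell markers were DEGs by the LRT and higher in EμMyc/Casp2-/- tumors, none was by QLF, and 11 passed at an unadjusted LRT p under 0.05.

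The genes most like each member over the 8 neuroblastomas were ranked by Pearson's r of log2 CPM among 13783 genes with a mean over 1 CPM, as a description. Group means were not taken away here. Genes that part the genotypes therefore tend to have an extreme r with the 4 chosen genes, and DEG calls among them support nothing. For Astn2 they included Ptprk (r = 0.99) and Cacng3 (0.97). Cacng3, a calcium channel subunit of the family that accompanies AMPA receptors, was itself a DEG (log2 fold change -2.51, LRT FDR 0.000351). For Rftn1 they were Ddx51 (0.99), Heatr2 (0.97) and the receptor gene Notch3 (0.97), which was a DEG at -1.79 (LRT FDR 0.0314). For Diras2 they were Megf6 (0.99), Eif4g1 (0.98) and Nedd9 (0.98), and Megf6 was a DEG at -3.58 (LRT FDR 0.0485). For Shb they were Sik1 (0.98), Th (0.98) and Shisa2 (0.98).

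Th encodes tyrosine hydroxylase, the enzyme of catecholamine synthesis whose promoter drives the MYCN transgene in these mice. It was at 314, 1075, 1175 and 1447 CPM in Th-MYCN tumors 1 to 4 and at 227, 135, 75.9 and 246 CPM in the Th-MYCN/Casp2-/- tumors. As with Shb, Th-MYCN tumor 1 was the lowest wild type tumor and Th-MYCN/Casp2-/- tumors 1 and 4 were the highest of their group. Its log2 difference of -2.55 (SE 0.693) did not pass the test (LRT FDR 0.0546, QLF FDR 0.220).

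For the paralogs the most alike genes were Cdc42se2, Onecut2 and Rab27b for Astn1 (r = 0.96 to 0.99), S100a16, Nudt2 and Sla2 for Rftn2 (0.97 to 0.98), and Klc1, Terf2 and Clptm1 for Diras1 (0.98 to 1.00), none of them a DEG. The lowest r was with Rps15a for Astn2, Pld5 for Rftn1, Necab1 for Diras2 and Cyth1 for Shb, between -0.97 and -0.98, and with Sirpa for Astn1, Nhlrc3 for Rftn2 and Gfm1 for Diras1, between -0.96 and -0.99. Pld5 was a DEG in the other direction, with a log2 fold change of 2.55 (LRT FDR 0.00262). Of the 21 most alike genes, 11 were among the 3 most alike when either strand was counted and 5 with the first strand, so most of these names are not stable.

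Of 144 tested genes that start within 1 Mb of a member, 2 were DEGs in the neuroblastomas and 1 in the lymphomas, and all 3 were higher in Casp2-/- tumors. Fam5b (current symbol Brinp2), on chromosome 1 from 158245265 and so beside Astn1, rose in the Th-MYCN/Casp2-/- tumors. It was at 31.0, 40.4, 47.3 and 40.0 CPM in the Th-MYCN and 226, 138, 218 and 56.1 CPM in the Th-MYCN/Casp2-/- tumors, without overlap, a log2 fold change of 2.01 (SE 0.421, LRT FDR 0.00250, QLF FDR 0.159). Daam2, near Rftn1, rose with a log2 fold change of 1.13 (LRT FDR 0.0375), from a mean of 7.29 to 16.0 CPM. Atcay, near Diras1, was the lymphoma DEG (2.52, LRT FDR 0.0189). No gene within 1 Mb of Astn2, Diras2 or Shb was a DEG in either comparison. The 12 tested neighbours of Diras2 had a median log2 fold change of -0.45 in the neuroblastomas, against -0.00 over all genes. Of these 12, 10 were negative, with a range of -2.17 to 0.72. The lowest value was that of 4921525O09Rik, whose mean fell from 0.282 CPM (wild type) to 0.0524 CPM. In the 5 Mb window around Diras2 the skew was absent, with a median of 0.006 and 39 of 83 negative. The neighbours of Diras1 within 1 Mb were skewed the other way, with 16 of 88 negative and a median of 0.14. Within 5 Mb, 3 neighbours were DEGs with lower levels in the Th-MYCN/Casp2-/- tumors, 1 each near Astn2, Rftn1 and Diras2, and 2 were higher.

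Fam5b is also a relative of the astrotactins, since both carry a MACPF domain and act in neurons. Of 5 tested genes with a MACPF domain, perforin and complement genes among them, Fam5b was the only DEG in the neuroblastomas by the LRT, and none was by QLF. At an unadjusted LRT p under 0.05, 3 passed, again without a share over all genes to set beside it. The other 4 had negative log2 fold changes, 2 of them without overlap between genotypes, and the median of the 5 was -2.05. None was a DEG in the lymphomas by the LRT or QLF, and 1 passed at an unadjusted LRT p under 0.05. Dbc1 (current symbol Brinp1), of the same small family as Fam5b, was at 1.22 to 2.32 CPM in Th-MYCN and 0.0720 to 0.450 CPM in Th-MYCN/Casp2-/- tumors, without overlap, and did not pass the test (log2 fold change -2.84, LRT FDR 0.206).

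In wider pathway lists, members left out, few genes were DEGs. None of 25 neuronal migration genes, 22 lipid raft genes, 31 Ras subfamily GTPases or 32 regulators of Ras and Rap was a DEG in the neuroblastomas, by the LRT or by QLF, and 4, 2, 2 and 3 passed at an unadjusted LRT p under 0.05. These counts too lack a share over all genes to set beside them. The median log2 fold changes of the 4 lists were 0.14, -0.03, -0.08 and -0.05, against -0.00 over all genes tested. Of 33 SH2 adaptors, 1 was a DEG, Grb10, at a log2 fold change of -3.19 (LRT FDR 0.0488), with a mean of 87.3 ± 144 CPM (SD, n = 4) in Th-MYCN tumors that shows how unequal they were. Of 23 known binding partners of Shb, 1 was a DEG, the VEGF receptor gene Kdr described above. Kdr was at 6.90, 9.08, 8.71 and 6.67 CPM in the Th-MYCN and 2.95, 2.96, 2.41 and 3.01 CPM in the Th-MYCN/Casp2-/- tumors, without overlap. Kdr, itself one of the endothelial markers, and Shb were thus both lower in every Th-MYCN/Casp2-/- tumor.

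In the lymphomas, the DEGs of these lists were Lat, Zap70 and Irs1 among the binding partners of Shb, Spred2 among the regulators of Ras, and Lat and Murc (current symbol Cavin4) among the raft genes. Zap70 rose from 12.0 ± 10.9 CPM (SD, n = 4) to 71.5 ± 4.39 CPM (SD, n = 3), which is 2.58 on the log2 scale (LRT FDR 0.000984, QLF FDR 0.0554). Lat, an adaptor of the T cell receptor, was at 166 ± 274 CPM (SD, n = 3) in EμMyc/Casp2-/- tumors, and this value rests on tumor 1, which was high in T cell markers. Murc was lower, from 0.419 CPM to 0 in all 3 EμMyc/Casp2-/- tumors. The Shb relatives Shd, She and Shf were not DEGs in either comparison. In the neuroblastomas Shd averaged 40.4 ± 6.89 CPM (SD, n = 4) with wild type Casp2 and 56.4 ± 20.8 CPM (SD, n = 4) without it, and Shf averaged 93.9 ± 12.3 and 89.7 ± 16.6 CPM.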

How the data were processed

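Poly(A) RNA of 15 tumors was sequenced as single-end reads. Per the labels and the study's methods, the authors ran FastQC, used STAR to align to mm10/GRCm38, and deposited raw counts per gene for either strand, the first strand and the second strand. The annotation release and tool versions are not given in the sources used here. The second strand was analysed, as in the study. In that count 56.9 to 60.3% of reads met no gene, and these were left out of library sizes. They include the reads that met a gene only on the first strand, which held about as many as the second. One tumor of the study is not analysed here.

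A single edgeR 4.0.16 fit (R 4.3.3) with 4 group means, TMM scaling and the filter above gave log2 fold changes, and P values were adjusted by Benjamini-Hochberg over 14880 genes. The study's statistic, the LRT, was used, with QLF and DESeq2 1.42.0 beside it. All 3 were also run on counts simulated from the fit itself, which cannot show the rate of false calls in these tumors. CPM is scaled by TMM, and log2 CPM has a prior count of 2. Library pairs of a group differed by more than counting noise (chi-square per degree of freedom 16.2 to 76.0 over 21 pairs). Positions came from RefSeq (98.9% of genes matched) and exon lengths from GENCODE M21, both GRCm38, and 12 listed genes were matched through older symbols. Genes named besides the 7 are Casp2, the 3 most and 1 least alike to each member (1 of these is not reported here), DEGs within 1 Mb and up to 4 DEGs per list. Trim32, Dbc1, Prf1, C6, Mpeg1 and the Shb relatives fall outside this rule and were named after their values were seen. The 7 genes and all lists were chosen with earlier results of these data known.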

Additional observations from a re-analysis of the deposited data

Results flagged for a closer look

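Rftn1 in EμMyc tumor 1 lay far from the other 3 EμMyc tumors, at 167 CPM against 116 to 117 CPM. It was the only such value among 24 groups of 4 tumors looked at, where chance flags about 1 in 20. Lat and Murc, both from the gene lists, had an effect of genotype that differed between tumor types. For Lat the difference was 4.70 on the log2 scale (LRT FDR 0.0452, QLF FDR 0.393), from -0.01 in the neuroblastomas to 4.69 in the lymphomas. For Murc it was -5.59 (LRT FDR 0.0448, QLF FDR 0.349), with 0 reads in the EμMyc/Casp2-/- tumors, so its size depends on the prior count.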

How the results depend on the processing

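No paired analysis was possible because the labels give mouse identifiers and no replicate numbers that groups share. Across 26 alternatives the log2 fold change in the neuroblastomas ran from -4.56 to -3.95 for Astn2, -1.62 to -1.30 for Rftn1, -2.10 to -1.49 for Diras2 and -1.81 to -1.28 for Shb. The cause of the changes below was not tested, beyond the fewer tumors or genes that some settings use. DEGs in the neuroblastomas numbered 5 by QLF, 66 with onset and 54 with sex as a covariate and 277 in the 8 neuroblastomas alone, against 121. In the lymphomas they numbered 21, 109, 103 and, in the 7 lymphomas alone, 35, against 215. For the interaction they were 8, 65 and 76, against 136. Pathway list DEGs in the neuroblastomas, 3 in all, were 0 by QLF, 0 with onset, 0 with sex and 1 in either strand or the first strand. In the lymphomas, 5 in all, they were 0 by QLF, 8 in the first strand, 3 with onset, 3 with sex and 1 in the lymphomas alone. Of the 21 most alike genes, 1 stayed by Spearman's rank correlation, 11 with either strand and 5 with the first strand. Within 5 Mb, 5 neighbours were DEGs in the neuroblastomas (3 lower, 2 higher) and 16 in the lymphomas. Leaving out 1 tumor gave 30 (without Th-MYCN tumor 4) to 187 DEGs (without Th-MYCN tumor 1) in the neuroblastomas, 75 (without EμMyc/Casp2-/- tumor 1) to 546 (without EμMyc/Casp2-/- tumor 3) in the lymphomas, 55 to 319 for the interaction and 7309 to 7465 between tumor types. Pathway list DEGs were then 1 to 5 and 3 to 12. Genes whose groups did not overlap were 985 to 2145 in the neuroblastomas and 546 to 2060 in the lymphomas. Values that changed sign, none past the test where one was made, were as follows. In the lymphomas these were Astn2 (-1.68 in the first strand, and -0.14 without EμMyc/Casp2-/- tumor 2 to 1.22 without EμMyc tumor 2), Rftn2 (-0.040 in the first strand) and Diras1 (-0.83 without EμMyc/Casp2-/- tumor 1 to 1.16 without EμMyc tumor 4). Between tumor types it was Diras2, at 0.0064 without scaling factors, 0.77 in Casp2-/- tumors alone and -0.15 to 0.14 with 1 tumor left out. In the interaction, over 25 settings, they were Shb (-0.73 to 0.57), Astn1 (-0.35 to 0.62), Rftn2 (-0.58 to 0.34) and Diras1 (-1.28 to 0.72). Depth limits Astn2, Astn1 and Diras1 in lymphomas, where 3 reads are 0.229 to 0.607 CPM.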
